A study of Mus musculus and synthetic RNA with 74 samples.

Results

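The RNAs described here are those of a randomized library whose predicted fold leaves the whole METTL16 nonamer unpaired inside one hairpin loop. They were chosen from the predicted structures alone, by the rule that positions 12 to 20 of the 30-nt RNA are all unpaired and lie in the same hairpin loop. Of the 36835 structures in the table, 4545 met this rule. All RNAs that fold into one structure share its values, so each member is a structure and stands for many sequences.

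In the experiment, chemically synthesized RNA was incubated overnight with recombinant full-length human METTL16 from insect cells and the methyl donor SAM, in 2 reactions numbered 11 and 12. A small portion of each reaction was kept as the input, and the rest was immunoprecipitated with an antibody against m6A (m6A-IP), which gave 2 input and 2 m6A-IP libraries. All 4 libraries come from RNA that had met the enzyme, with no library from RNA without METTL16, so enrichment can only be read against the matching input. The study's embryos from Mettl16 knockout crosses were not used here.

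METTL16 is a methyltransferase that places N6-methyladenosine (m6A) on structured RNAs, of which U6 snRNA and the hairpins of the MAT2A mRNA are the known targets. MAT2A encodes the synthetase that makes SAM. A hairpin loop is the unpaired turn that a stem of base pairs closes. An unpaired base on one strand of a stem is a bulge, while unpaired bases that face each other on both strands form an interior loop, of which the smallest is a single mismatch.

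The library RNA is shown first, with the adenosine that can be methylated (position 15) as the only capital, and then 4 folds in dot bracket notation, in which a dot is an unpaired base and brackets are paired bases. They are shown because they carry the main comparisons, namely a closed stem, the same stem with 1 mismatch, a long stem, and a fold with the base pair between positions 12 and 20 that is not a member.
library RNA: nnnnnnnnnnnuacAgagaannnnnnnnnn
stem of 4 pairs, loop of 10 nt: ......((((..........))))......
same stem with 1 mismatch: ......((.(..........).))......
stem of 8 pairs, loop of 11 nt: ...((((((((...........))))))))
pair 12-20 added inside the loop: ......((((.(.......).)))).....

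The nonamer is uacAgagaa, taken from the first hairpin of the MAT2A mRNA, with 11 random bases before it and 10 after it. The table gives structures and no nucleotide letters for the random bases. The base composition of a stem therefore cannot be told apart from its number of pairs.

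The loops of the members held 10 to 24 nt, with a median of 12, and the closing stems held 2 to 10 base pairs, with a median of 6. No member had a loop of exactly the 9 nt of the nonamer, which a pair between positions 11 and 21 would close. In 1982 structures of the table the pair 11-21 was stacked on a pair 12-20, which pairs the ends of the nonamer and puts these structures outside the rule. The stem was uninterrupted in 307 members, held 1 bulge in 1258, 2 bulges in 126, 1 interior loop in 1630, 2 interior loops in 503 and 3 in 4, and held both kinds in 717. The 307 uninterrupted members were few but abundant, with 8.24% of the reads of the input library of reaction 11, whereas the 4238 interrupted members held 5.77% of them.

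The values as deposited are reads per structure divided by a size factor of the library. Whole reads could be recovered from them, and the 4 libraries held between 1154715 and 22118622 reads, the lowest number being that of the m6A-IP library of reaction 12. In that library the median member had 8 reads and 75 members had no read, against a median of 133 reads in the input library of reaction 11. Single members were therefore much less precise in the m6A-IP of reaction 12, and groups of members are described by summed values.

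Members took a smaller share of the m6A-IP libraries than of the input libraries. They held 14.01% and 14.02% of the reads of the input libraries of reactions 11 and 12 and 11.31% and 11.43% of those of the m6A-IP libraries. The widest 95% Wilson interval, that of the m6A-IP of reaction 12, was 11.38% to 11.49% and covers counting error only. Both m6A-IP shares were below both input shares. On the authors' scale the log2 ratio of summed values, m6A-IP over input, was -0.37 in reaction 11 and -0.70 in reaction 12, or -0.53 ± 0.23 (SD, n = 2 reactions). All structures together gave -0.06 and -0.40 on that scale, which is an offset of the libraries. Group values below are therefore share ratios, the log2 ratio of a group's share of the m6A-IP library to its share of the input of the same reaction. For all members the share ratio was -0.31 in reaction 11 and -0.29 in reaction 12. With 2 libraries against 2, an exact two-sided permutation test cannot give a p below 0.333, so group values carry the spread of the reactions in place of a p.

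Of single members, 500 (11.0%) were enriched and 1417 (31.2%) were depleted in m6A-IP at an adjusted p of at most 0.1 (limma's moderated test over all structures, on log2 of the value plus 5). Of all 36835 structures, 12.5% were enriched and 27.2% were depleted, so the members' counts were near the background. The median log2 fold change was -0.34 over members and -0.27 over all structures. Scaling to library totals gave 877 enriched and 1282 depleted members, and enriched members were then 40.6% of those called, against 26.1% on the authors' scale, and they were 44.5% with edgeR and 43.0% with DESeq2 on the recovered reads. Without 1 library the counts ranged from 91 enriched and 201 depleted, without the input of reaction 12, to 1166 enriched, without the m6A-IP of reaction 12, and 2739 depleted, without that of reaction 11.

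The members differed among themselves with the number of base pairs in the closing stem. Members with 2 pairs had a share ratio of 0.62 and 0.64 in reactions 11 and 12. The ratio was -0.15 and -0.14 with 3 pairs, -0.25 and -0.25 with 4, -0.31 and -0.28 with 5, -0.43 and -0.40 with 6, -0.60 and -0.58 with 7, -0.87 and -0.88 with 8, and -1.19 and -1.24 with 9. It was lower at each added pair in both reactions. Each step was larger than the difference between the reactions, except that from 4 to 5 pairs in reaction 12. The only member with 10 pairs had 59 and 61 reads in the input libraries, 33 in the m6A-IP of reaction 11 and 0 in that of reaction 12. As single structures, 26 of 69 members with 2 pairs were enriched and 0 depleted, whereas 0 of 356 with 8 pairs were enriched and 225 depleted. The order from 2 to 3 pairs was reversed by structure, with 118 of 240 members with 3 pairs enriched and 31 depleted. Their median log2 fold change was 0.69, against 0.33 with 2 pairs. Of the 515519 reads of these 240 in the input of reaction 11, 77 uninterrupted folds held 504803. Members with at least 5 pairs (3668) were below those with at most 3 pairs (309) by a log2 difference of -0.34 in reaction 11 and -0.32 in reaction 12, or -0.33 ± 0.01 (SD, n = 2). Averaging structures equally in place of summing their values made this difference -0.89.

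The decline was also present where the stem was uninterrupted. There the share ratio was 0.62 and 0.64 with 2 pairs, -0.20 and -0.21 with 3, -0.51 and -0.53 with 4, -0.73 and -0.73 with 5, -0.99 and -0.98 with 6, -1.23 and -1.31 with 7, and -1.52 and -1.56 with 8. With 9 pairs it was -1.68 and -1.41, from 36 reads in the m6A-IP of reaction 12. Every one of the 65 uninterrupted members with at least 6 pairs was depleted (limma, adjusted p at most 0.1), as were 40 of 41 with 5 pairs and 50 of 55 with 4. Enriched structures among the uninterrupted members had a stem of 2 pairs in 26 cases and of 3 pairs in 2.

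The abundant uninterrupted hairpins show this structure by structure. Normalized reads and log2 fold changes of single folds, here and below, are on the authors' scale and keep its offset. The member with the most input reads, with 4 pairs and a loop of 10 nt (......((((..........))))......), had 11075 and 11229 normalized reads in the inputs of reactions 11 and 12 and 7190 and 5676 in the m6A-IP libraries. Both m6A-IP values were below both input values, and its log2 fold change was -0.80 (SE 0.20, limma adjusted p 0.0367). The fold with 3 pairs and the same loop (.......(((..........))).......) had 9887 and 9848 in the inputs and 8062 and 6141 in m6A-IP. The groups did not overlap, but its log2 fold change of -0.49 did not pass the test (SE 0.20, limma adjusted p 0.124). The most abundant fold with 5 pairs (......(((((...........)))))...) had 7800 and 7759 in the inputs against 3673 and 3015 in m6A-IP, a log2 fold change of -1.22 (SE 0.18, limma adjusted p 0.0145).

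With 8 pairs, the most abundant fold (...((((((((...........)))))))) had 1409 and 1393 normalized reads in the inputs and 423 and 236 in m6A-IP, a log2 fold change of -2.13 (SE 0.28, limma adjusted p 0.0138). The m6A-IP value of reaction 12 rests on 34 reads. At the other end, a fold with 2 pairs (......((............))........) had 626 and 591 in the inputs and 1003 and 908 in m6A-IP, with no overlap, and its log2 fold change was 0.65 (SE 0.15, limma adjusted p 0.0327). The most abundant fold with 2 pairs (.......((...........))........) had 1051 and 1009 in the inputs and 1370 and 949.5 in m6A-IP, so the groups overlapped on that scale. Its log2 ratio was 0.38 in reaction 11 and -0.09 in reaction 12, above the -0.06 and -0.40 of all structures.

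Removing only the outermost pair of a member often gives another member, and such pairs of folds have the same loop and the same inner stem. There were 2862 of them, which reuse many structures. Where the outermost pair lies beyond a bulge or interior loop, opening it also removes that interruption. The full set therefore mixes the added pair with an added interruption. The longer fold was lower by a median log2 difference of -0.19 in reaction 11 and -0.21 in reaction 12, and it was lower in both reactions in 1473 pairs and higher in both in 617. With the values of all longer and of all shorter folds summed, the log2 difference was -0.04 and -0.05, but a structure can stand in both sums. At one stem length of the longer fold it was -0.80 and -0.81 with 3 pairs, -0.14 and -0.15 with 4, and -0.08 and -0.06 with 5. For uninterrupted folds these sums gave -0.83 and -0.85, -0.30 and -0.32, and -0.21 and -0.19. Where both folds were uninterrupted (223 pairs), the median difference was -0.27 and -0.32, with the longer fold lower in both reactions in 188 pairs and higher in both in 8. Among these, the third pair went with the largest difference, a median of -0.85 and -0.92 over 62 pairs of folds. The median was -0.31 and -0.31 for the fourth pair (55), -0.20 and -0.24 for the fifth (41), -0.19 and -0.21 for the sixth (29), and -0.14 and -0.16 for the seventh (19). For the eighth pair, the medians of -0.08 and 0.01 over 11 pairs of folds had opposite signs. From the third to the seventh pair the differences became smaller on the log2 scale.

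Loop size made little difference in the sum over all members but had a regular course within stems of one length. Members with loops of up to 12 nt (2817) had a log2 ratio that differed from that of members with loops of at least 15 nt (746) by -0.05 in reaction 11 and -0.02 in reaction 12, or -0.04 ± 0.02 (SD, n = 2), and by -0.20 when structures were averaged equally. Stem lengths differ between loop sizes, since a larger loop leaves fewer bases for pairing. In uninterrupted stems of 4 pairs, the share ratio was -0.69 and -0.71 with a loop of 10 nt, -0.52 and -0.57 with 12, -0.39 and -0.45 with 14, -0.37 and -0.41 with 15, -0.54 and -0.55 with 17, and -0.68 and -0.69 with 19. It was therefore highest at 15 nt and lower on both sides in both reactions.

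The same course was seen with 5 pairs, where the share ratio was -1.02 and -0.91 at 10 nt, -0.58 and -0.51 at 15 nt and -0.73 and -0.85 at 18 nt. With 3 pairs it was -0.31 and -0.33 at 10 nt, -0.05 and -0.07 at 14 nt, and -0.48 and -0.42 at 20 nt. With 6 pairs, loops of 10 to 12 nt had -1.18 and -1.17 (9 structures), loops of 13 to 14 nt had -0.86 and -0.88 (10), and loops of at least 15 nt had -0.92 and -0.88 (10). With 7 pairs the values were -1.35 and -1.47 for 10 to 12 nt and -1.12 and -1.17 for 13 to 14 nt. The tightest loops were thus more depleted than loops of 13 to 15 nt for stems of 4 to 7 pairs, by more than the reactions differed. They were not the most depleted of all loops. The only member with 4 pairs and a loop of 22 nt, an uninterrupted one, had -0.99 and -1.07. With 2 pairs the share ratio was 0.62 and 0.60 for 10 to 12 nt and 0.59 and 0.60 for at least 15 nt, so these loops did not differ beyond the reactions.

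A loop of 10 nt holds the nonamer and 1 further base, which lies before the nonamer when the stem closes at positions 10 and 21 and after it when it closes at 11 and 22. For each uninterrupted stem of 2 to 9 pairs the table lists 1 structure of each kind. The fold with the base before the nonamer had the higher ratio for stems of 2 to 8 pairs in both reactions. With 4 pairs the share ratios were -0.56 and -0.58 with the base before and -0.86 and -0.89 with the base after it. With 5 pairs they were -0.86 and -0.75 against -1.22 and -1.12. The log2 differences over these 7 lengths were 0.16 to 0.38 in reaction 11 and 0.12 to 0.50 in reaction 12. The 0.50 is that of 8 pairs and rests on 13 and 12 reads in the m6A-IP of reaction 12. With 9 pairs the difference was -0.04 in reaction 11 and 0.20 in reaction 12, from 6 and 12 reads in the m6A-IP of reaction 12.

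Interior loops went with higher values, and bulges did so to a lesser degree and only at equal stem length and loop size. Taken over all stem lengths, uninterrupted members had a share ratio of -0.47 and -0.48, members with 1 bulge -0.51 and -0.47, members with 1 interior loop 0.01 and 0.04, and members with 2 interior loops 0.73 and 0.84. On the authors' scale the members with 1 interior loop were at -0.05 and -0.36, so the sign of that group depends on the scaling. The 4 members with 3 interior loops had 71 and 50 reads in the inputs, 208 in the m6A-IP of reaction 11 and 22 in that of reaction 12. All interrupted members were above the uninterrupted ones by 0.36 in reaction 11 and 0.42 in reaction 12, or 0.39 ± 0.04 (SD, n = 2).

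Interrupted stems had more base pairs on average, so the comparison was repeated within groups of equal stem length and loop size. There the interrupted members were higher by 0.87 and 0.93, or 0.90 ± 0.05 (SD, n = 2), weighted by input reads over 53 such groups, and they were higher in 53 groups in reaction 11 and in 50 in reaction 12. Members with 1 bulge were higher than uninterrupted ones by 0.50 and 0.57 over 43 groups. For 1 interior loop the difference was 0.90 and 0.95 over 48 groups, and for 2 interior loops it was 1.95 and 2.09 over 20 groups. In all 48 and all 20 groups the members with interior loops were the higher ones in both reactions.

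The number of pairs still mattered within each kind of interrupted stem. With 1 interior loop the share ratio was 1.36 and 1.48 with 3 pairs, 0.63 and 0.69 with 4, 0.08 and 0.12 with 5, -0.28 and -0.26 with 6, and -0.77 and -0.78 with 8. With 2 interior loops it was 2.59 and 3.24 with 4 pairs (8 structures), 1.42 and 1.59 with 5, 0.74 and 0.84 with 6, and 0.29 and 0.35 with 7. The 8 structures together had only 89 and 83 reads in the inputs and 579 and 50 in m6A-IP. With 1 bulge it was 0.18 and 0.25 with 4 pairs, -0.31 and -0.25 with 5, -0.59 and -0.55 with 6, and -0.79 and -0.76 with 7. Each of these 3 kinds declined with added pairs in both reactions, and at 5 pairs the order was 2 interior loops, 1 interior loop, 1 bulge and uninterrupted.

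The shape of a single interior loop also made a difference. With 4 pairs, a 1 by 1 mismatch had a share ratio of 0.75 and 0.79 (123 structures), a larger loop with equal sides 0.31 and 0.39 (114), and a loop with unequal sides 0.61 and 0.72 (70). With 5 pairs these were 0.19 and 0.23, -0.08 and -0.05, and -0.09 and -0.08. With 6 pairs they were -0.17 and -0.16, -0.37 and -0.38, and -0.45 and -0.38. The single mismatch was the highest of the shapes at 4 to 6 pairs in both reactions. At 3 pairs its share ratio was 1.52 and 1.64, and 88 of its 97 structures were enriched and 0 depleted.

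Bulges of 1 nt were compared by strand. Those on the 3′ strand had a share ratio of -0.40 and -0.39 (398 structures) and those on the 5′ strand -0.58 and -0.52 (472). Within stems of 4 pairs the values were 0.29 and 0.32 on the 3′ strand against 0.07 and 0.18 on the 5′ strand. Within stems of 5 pairs they were -0.21 and -0.17 against -0.43 and -0.36. The 3′ strand was also the higher one at 6, 7 and 9 pairs in both reactions. At 8 pairs the ratio was -1.03 and -1.19 on the 3′ strand against -1.09 and -0.85 on the 5′ strand, so the reactions disagreed.

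A mismatch was compared with a closed pair in 1956 pairs of member folds that differ only in 1 pair, which is open in one fold and closed in the other. The closed fold thus has 1 more base pair. The mismatch cannot be told apart here from the number of pairs or the base composition. These pairs of folds were set up after the data had been seen, and they reuse many structures. The fold with the mismatch was higher by a median log2 difference of 1.20 in reaction 11 and 1.31 in reaction 12. It was the higher one in 99.7% of the pairs in reaction 11 and in 94.8% in reaction 12, in 1850 in both, and it was in no case lower in both. Where both folds had at least 100 reads in each input library, it was higher in 752 of 754 pairs. Folds with the mismatch had fewer reads than their closed partners, with medians of 83 and 645 in the input of reaction 11. Of the 1956 folds with a mismatch, counted once for each pair, 577 were enriched and 140 depleted, and of the closed partners 0 were enriched and 1647 depleted.

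From 3 to 8 pairs the difference fell with the length of the stem, from a median of 2.03 with 3 pairs besides the mismatch (97 pairs of folds) to 1.58 with 4 (138), 1.44 with 5 (418), 1.27 with 6 (642), 0.99 with 7 (491) and 0.77 with 8 (163). With 9 pairs it was 0.94 over 7 pairs of folds, which all share one closed partner, the only member with 10 pairs. That partner had 0 reads in the m6A-IP of reaction 12, so the 7 are not separate comparisons. The fold with the mismatch was the higher one in 4 of the 7 in reaction 11. It was higher in all 7 in reaction 12, where this rests on the 0. The difference also varied with the place of the mismatch in the stem. The median was 1.44 where the mismatch was next to the pair that closes the loop (389 pairs of folds), 1.26 where it lay 2 positions from that pair on the 5′ strand (415), 1.25 at 3 positions, 1.22 at 4, 1.22 at 5, 1.12 at 6 (197), 0.92 at 7 (83) and 1.17 at 8 (7).

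The most abundant hairpin gives examples of a mismatch against the closed pair, at one stem length. Opened at the second pair from the loop (......((.(..........).))......), it had 102 and 105 normalized reads in the inputs and 293 and 270 in m6A-IP, a log2 fold change of 1.40 (SE 0.16, limma adjusted p 0.0137). Opened at the third pair (......(.((..........)).)......), it had 67.9 and 77.8 in the inputs and 216 and 180 in m6A-IP, a log2 fold change of 1.38 (SE 0.19, limma adjusted p 0.0139). In both, the m6A-IP values were above both inputs, and the closed fold had gone the other way, at -0.80.

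The largest enrichments and depletions differed in how firmly they were measured. The member with the largest enrichment, ....((.(.............).))....., had 19.2 and 15.2 normalized reads in the inputs and 91.4 and 125 in m6A-IP, a log2 fold change of 2.34 (SE 0.25, limma adjusted p 0.0137). The other 4 of the 5 largest enrichments, between 2.00 and 2.16, had 2 interior loops each, and the m6A-IP of reaction 12 held 5 to 12 reads of them. All 5 had 1 or 2 pairs next to the loop.

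The 5 largest depletions all had a single bulge in a stem of 7 or 8 pairs and no read in the m6A-IP of reaction 12. The member ((((((((............))))).))). had 153 and 161 normalized reads in the inputs, 69.8 in the m6A-IP of reaction 11 and 0 in that of reaction 12. It was thus low in both, but its fitted log2 fold change of -3.07 (SE 1.16, limma adjusted p 0.0982) rests on the 0, and a count of 0 in that library allows up to 20.8 normalized reads. In reaction 11 alone its log2 ratio was -1.08. Of the 75 members with no read there, 24 were among the depleted, and the other 1393 depleted members had reads in all libraries.

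A second hairpin occurred in 6 members, always 2 pairs with a loop of 4 nt at the 5′ end, followed by an uninterrupted stem of 3 pairs that closes directly before the nonamer. Together they had 463 and 377 reads in the inputs, 722 in the m6A-IP of reaction 11 and 43 in that of reaction 12, and a share ratio of 0.53 and 0.84. All uninterrupted members with 3 pairs, these 6 included, had -0.20 and -0.21. That group also holds stems that do not close directly before the nonamer, so it differs from the 6 in more than the second hairpin. The most abundant of the 6, ((....))(((..........)))......, had 60.7 and 52.0 normalized reads in the inputs and 67.0 and 76.2 in m6A-IP. Its m6A-IP values were above both inputs, but the log2 fold change of 0.32 did not pass the test (SE 0.20, limma adjusted p 0.259). Of the 6, 2 were enriched and 0 depleted.

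A base pair between positions 12 and 20, inside the loop, takes a fold out of the membership. In 96 cases the table lists both a member with a loop of 11 nt closed at positions 10 and 22 and the same fold with the pair 12-20 added, across a mismatch of positions 11 and 21, which leaves a loop of 7 nt with position 15 in it. This comparison was also made after the data had been seen. The fold with the added pair was higher by a median log2 difference of 0.93 in reaction 11 and 1.03 in reaction 12, and it was higher in 96 of the pairs in reaction 11 and in 87 in reaction 12. Of the members, 4 were enriched and 63 depleted, and of the folds with the added pair 21 were enriched and 0 depleted. The added pair also turns positions 11 and 21 into a mismatch and shortens the loop, and these changes cannot be told apart here.

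The most abundant of these pairs shows the difference. The member ......((((...........))))..... had 7125 and 7058 normalized reads in the inputs and 4333 and 3604 in m6A-IP, a log2 fold change of -0.84 (SE 0.18, limma adjusted p 0.0265). With the pair 12-20 (......((((.(.......).)))).....) the values were 792 and 782 in the inputs and 1030 and 769 in m6A-IP. These groups overlapped on the authors' scale, and the log2 fold change of 0.18 did not pass the test (SE 0.19, limma adjusted p 0.497). The log2 ratio of this fold was 0.38 in reaction 11 and -0.02 in reaction 12. Both were above the offset of all structures in the same reaction, -0.06 and -0.40.

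A decline with the number of pairs was also present outside the members. Position 15 lay in a hairpin loop of up to 8 nt in 16797 structures, with a share ratio of -0.27 and -0.26. In their folds with a single hairpin the ratio differed little from 3 to 5 pairs. It was -0.047 and -0.0016 with 3 pairs, -0.065 and -0.046 with 4 and -0.04 and -0.03 with 5. With more pairs it was -0.21 and -0.21 with 6, -0.59 and -0.56 with 8 and -1.14 and -1.13 with 10. In larger hairpin loops with the nonamer partly paired (2543 structures, -0.21 and -0.21), it was 0.18 and 0.19 with 3 pairs, -0.20 and -0.22 with 5 and -0.81 and -0.69 with 8. At 5 and at 8 pairs the members (-0.31 and -0.28, -0.87 and -0.88) were below both other groups in both reactions, and these differences were not tested. Structures in which position 15 lay in an unpaired tail (131) had 0.41 and 0.42. The fold with no pair at all, with 12.6% of the reads of the input of reaction 11, had -0.02 and -0.02.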

How the data were processed

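The library RNAs of 2 input and 2 m6A-IP libraries were sequenced. The authors trimmed the reads with cutadapt 1.9.1, kept 30-nt reads with the nonamer in place, predicted a minimum free energy structure for each RNA with RNAfold and summed the reads per structure. The deposited signal is this number of reads divided by a DESeq2 1.18.1 size factor of the library. The authors' own log2 fold changes and p-values in the table were not used, nor were the embryo tables.

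The rule for members uses the predicted structures only. The rule and the groups of members were, however, set with earlier results of these data known. Values were compared after adding 5 and taking log2, by limma (version 3.58.1, run in R 4.3.3) with a mean-variance trend over all 36835 structures. P-values were adjusted by the Benjamini-Hochberg method, and the threshold was 0.1. The step was tested on simulated data. All values were whole multiples of 1 read within 0.01 reads, and the recovered reads served edgeR 4.0.16 and DESeq2 1.42.0 as alternatives. Whether the recovered step is exactly 1 read was inferred from the gaps between values. Summed values were compared within each reaction. Samples with one number come from one reaction, although their deviations from the group means correlated by only 0.015. The reactions are the only replicates, so the spread may be technical.

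Structures named singly were those with the most input reads overall and per stem length, the 5 largest enrichments and depletions past the threshold, and second hairpins, with examples of the pairs of folds by input reads. The other steps used scipy 1.17.1, pandas 2.3.3 and numpy 2.4.6 under Python 3.11.15.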

Additional observations from a re-analysis of the deposited data

How the results depend on the processing

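The direction of the group differences held under every alternative run for them, but counts of single structures depended on the settings. With totals in place of size factors, 877 members were enriched, the median log2 fold change of members was -0.13 and the ratio of summed values -0.30. edgeR on recovered reads called 1408 enriched members with a median of -0.10, and DESeq2 706 depleted members with a median of -0.11. The replicate block, which pairs the libraries of a reaction, gave 448 enriched and 1498 depleted members and changed no count by over 1.5 times. Leaving out 1 library gave 91 to 1166 enriched and 201 to 2739 depleted members, with 92 and 219 without the input of reaction 11, 91 and 201 without that of reaction 12, 942 and 2739 without the m6A-IP of reaction 11, and 1166 and 2068 without that of reaction 12, when the lone library is assumed to vary like the other group.

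Weighting structures equally gave -0.28 for the ratio of members, -0.89 for stem length, -0.20 for loop size and 0.33 for interrupted stems. Leaving out 1 library gave -0.35 to -0.31 for stem length and -0.060 to -0.017 for loop size. For the outermost pair the median difference was -0.22 with a pseudocount of 1, -0.17 with 20, and -0.21 to -0.18 without 1 library. Summing the values of all longer and of all shorter folds gave -0.042, where a structure can stand in both sums. A pseudocount of 20 gave 1.11 for the mismatch and 0.82 for the pair 12-20, and summing the values of each side gave 0.85 and 1.09. The cause of these shifts was not tested. The planned comparison of members closed by the pair 11-21 had no value, since no member has that pair.

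Of the 593 values of 54 named structures under the alternatives, 481 kept their direction and their side of the threshold, 55 lost and 49 gained the call, and 8 turned direction. The fold .....(((((.(.......).))))).... turned to 0.031 with totals, 0.13 with edgeR and 0.084 with DESeq2, and ranged from -0.43 to 0.029 without 1 library. Without 1 library, .......((...........))........ ranged from -0.12 to 0.41, ((....))(((...........)))..... from -0.27 to 0.50, ((....))(((.............)))... from -0.12 to 0.41 and ......((((.(.......).))))..... from -0.032 to 0.39, each being lowest without the m6A-IP of reaction 11. In the m6A-IP of reaction 12 the median member had 8 reads, which limits the precision of single structures.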
